A study of Mus musculus with 2 samples.

Results

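The 3' end of a gene is where its primary transcript is cleaved and polyadenylated. The last bases of 9813 protein-coding gene records, out of 20359 with a known strand on mouse chromosomes 1 to 19, lay more than 10 kb from every protein-coding transcription start site (TSS). These 9813 positions were examined for H3K4me1, monomethylation of histone H3 at lysine 4, in E14TG2a.4 cells, mouse embryonic stem cells from a male of strain 129/Ola, with an age of 3.5 days in the labels. The data were peak lists from ChIP-seq of 2 biological replicates, with no treatment named. The cell line is the only group, so no condition was compared with another, and all comparisons below are between kinds of position within the same libraries. The rule used gene positions alone and no peak.

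H3K4me1 is deposited mainly by the MLL3 and MLL4 methyltransferases. It marks active and primed enhancers and the flanks of active promoters, and it also spreads over the early part of transcribed genes. Gene 3' ends are not among the places it is known for. A typical 3' end carries a polyadenylation hexamer, AATAAA, shortly before the cleavage site, in a stretch rich in A and T.

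Of 11 marker genes of embryonic stem cells, 10 had a replicated peak within 2 kb of the TSS, the exception being Tdgf1, as did 4 of 8 marker genes of fibroblasts. Among the 9813 genes with a distal 3' end, 81.7% had such a peak, so 10 of 11 is near that share. A promoter peak does not measure expression, so these counts do not by themselves identify the cells. The list of replicate 1 held 313453 peaks and that of replicate 2 held 325226, and the authors kept 226060 as replicated. Read counts were not used here, so depth is unknown.

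Within the mm9 gene records of GENCODE vM1, where the genome sequence could be read, AATAAA stood on the gene's own strand in the last 50 bases of 61.0% of the 2496 3' ends that had a peak of the authors' series list. It stood there in 58.3% of the 7188 ends without one. In the 50 bases from 950 to 1000 bp inside the same genes, the hexamer was found in 1.96% of genes with and 2.96% of genes without a peak at the end. The reverse complement TTTATT was in the last 50 bases of 7.69% of ends with and 7.51% of ends without a peak. The last 30 bases of 6 peak-bearing genes described below show the position that the results turn on, 5' to 3' on the gene's strand, with the hexamer in capitals. Genes were eligible for printing only where these 30 bases held a single AATAAA, so its presence in them was set by the choice.
Fntb, chr12:78022370-78022399, plus strand, mm9: tccttgaaatAATAAAagagtaacattttc
Itgb7, chr15:102046426-102046455, minus strand, mm9: ggtccttccatAATAAAgctttgccccaga
Esrrb, chr12:87862549-87862578, plus strand, mm9: aaatctAATAAAtaaggaaaggtctgctga
Tbx3, chr5:120134704-120134733, plus strand, mm9: tgaaatttcAATAAAtttttattgaaatga
Etv4, chr11:101631056-101631085, minus strand, mm9: tAATAAAgcctctgcttctccggttgtttc
Gata3, chr2:9778705-9778734, minus strand, mm9: taatAATAAAgttaaaatattttaaaacaa
In these genes the hexamer began 19 to 29 bases before the end of the record, counting its own bases. The mm9 record of a gene need not end at the same base as its mm10 record, from which all values below come unless mm9 is named.

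On mm10, a peak covered the last base of 1185 of the 9813 3' ends in replicate 1 and of 1259 in replicate 2. These were 12.1% and 12.8% of the ends, a mean of 12.5 ± 0.53% (SD, n = 2). The authors' replicated list covered 1414, or 14.4%. Over all 20359 3' ends, near and far from a TSS, the background was 18.5% in replicate 1, 18.4% in replicate 2 and 21.1% in the replicated list. Both replicates covered the same 956 ends, which were 80.7% of the ends covered in replicate 1 and 75.9% of those covered in replicate 2. Of the 1414 ends under a replicated peak, 956 were covered in both replicates, 372 in one and 86 in neither. Neither replicate covered the last base of 8325 ends, and 3743 ends in replicate 1 and 3584 in replicate 2 had no covered base within 5 kb. Across the 9813 ends, the coverage of the surrounding 10 kb had a Spearman correlation of 0.959 between the replicates. This describes 2 libraries of the same cells at the same positions.

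Over all 9813 ends and all peaks, the 3' end itself was covered less often than the sequence on either side of it, in both replicates. The share of bases in peaks reached its highest inside the gene, at 18.3% in the bin from 800 to 900 bp before the end in replicate 1 and at 18.7% in the bin from 900 to 1000 bp before it in replicate 2. It was lowest in the last 100 bp of the gene, at 11.9% in replicate 1 and 12.4% in replicate 2. Beyond the gene it came back to 16.0% in replicate 1 and 16.5% in replicate 2, both between 201 and 300 bp past the end. At the limits of the profile it was 15% and 15.8% inside in replicates 1 and 2, and 14% in both replicates beyond.

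**Figure D1:**
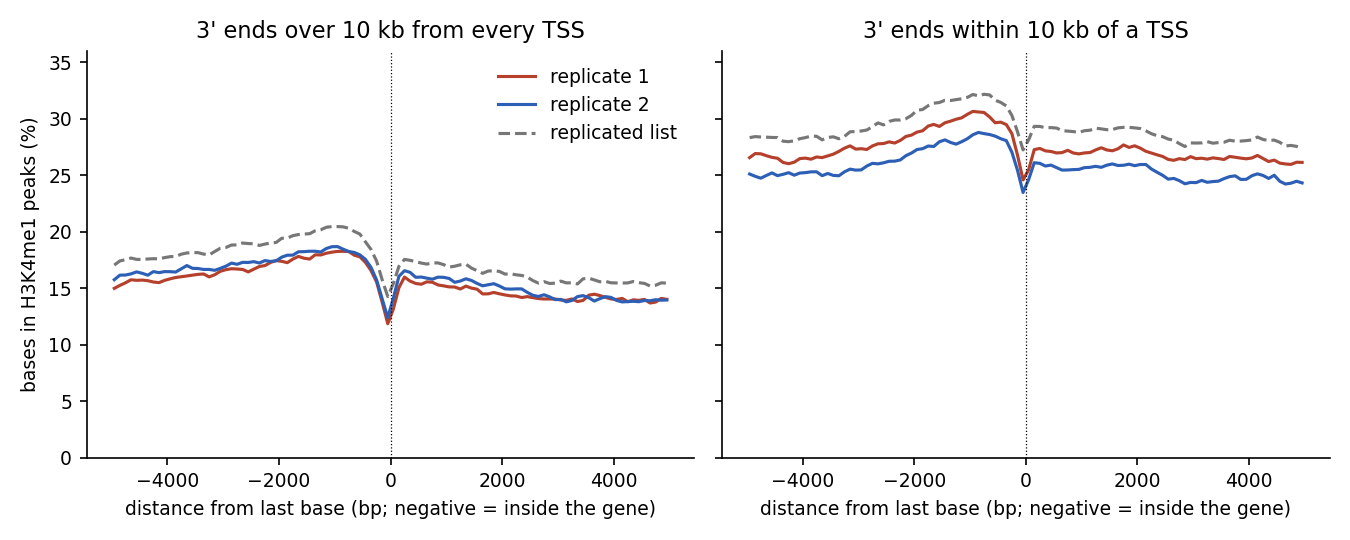
Share of bases in H3K4me1 peaks (y axis, %) by distance from the last base of the gene (x axis, bp, 100 bp bins, negative inside the gene), for the 9813 3' ends over 10 kb from every TSS (left) and the 10546 ends within 10 kb of one (right). Solid lines are the replicates and the dashed line is the replicated list; on the left, coverage in the last 100 bp of the gene drops to 11.9% in replicate 1 and 12.4% in replicate 2.

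Averaged over 100 bp on each side of the 3' end, coverage was 12.9 ± 0.53%, against 18.2 ± 0.15% at 500 to 1000 bp inside and 15.7 ± 0.38% at 500 to 1000 bp beyond (SD, n = 2). The value at the end was lower than that inside by 5.31 ± 0.38 points, so the difference was many times the spread between replicates. An exact permutation test of the 4 replicate values, two-sided, gave p = 0.33 for the end against the inside, which is the smallest p that 2 values against 2 allow. That test treats the 4 values as separate although they come from the same 2 libraries. The differences within each replicate, of which both had the same sign, gave p = 0.5 by exact sign flips, two-sided, the smallest that 2 differences allow. Neither exact test can therefore reach 0.05 here for any of the comparisons. At the 10546 3' ends within 10 kb of a TSS, coverage was also lower at the end, with 24.5 ± 0.70% within 100 bp against 29.5 ± 1.2% at 500 to 1000 bp inside.

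The summits of the peaks, their highest points, showed the same gap more sharply. In replicate 1, 88 summits fell in the last 100 bp of the 9813 genes, against 282 between 600 and 700 bp inside and 273 between 101 and 200 bp beyond. In replicate 2, 85 fell in the last 100 bp, against 297 between 600 and 700 bp inside and 295 between 201 and 300 bp beyond. That bin held the fewest summits of all bins within 5 kb of the end in both replicates. Many 3' ends were flanked by peaks without being covered. The same count was not made at other positions, so whether its share is particular to 3' ends was not tested. In replicate 1, 1926 ends had a covered base within 1 kb on both sides, and in 742 of them, 38.5%, the last base itself was free. In replicate 2 these numbers were 758 of 2016, or 37.6%, and in the replicated list they were 519 of 1933, or 26.8%.

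**Figure D2:**
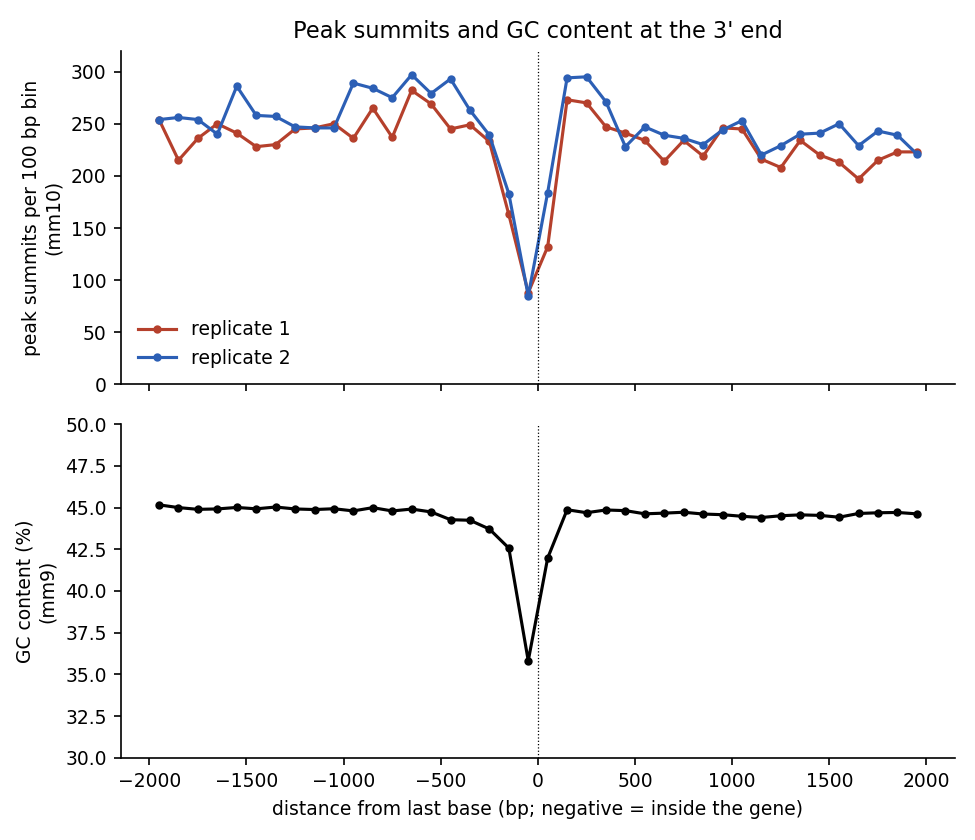
Top, number of peak summits (y axis) in each 100 bp bin around the 9813 mm10 3' ends, per replicate; bottom, GC content (y axis, %, axis from 30 to 50) in the same bins around the 9684 mm9 3' ends. The x axis is the distance from the last base in bp, negative inside the gene; both the summits (88 and 85) and the GC content (35.8%) are lowest in the last 100 bp.

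Base composition changed at the same place. Around the 9684 ends that met the same rule on mm9, GC content was lowest in the last 100 bp, at 35.8%, against 44.8% at 500 to 1000 bp inside and 44.6% at 500 to 1000 bp beyond. The mm9 lists, whose intervals lie on a coarser grid and cover more of the genome, also had lower coverage within 100 bp of the end. It was 23.3 ± 0.70% there, against 26.6 ± 0.51% at 500 to 1000 bp inside and 24.2 ± 0.46% beyond. When ends were split into 3 equal sets by the GC content of the 200 bp around them, the set of lowest GC, with a median of 31.0%, had 11 ± 1.0% at the end against 15.1 ± 1.1% inside. The middle set, with a median of 38.5%, had 19.7 ± 1.2% at the end against 24.1 ± 0.95% inside. The set of highest GC, with a median of 46.5%, had 39.2 ± 0.09% at the end against 40.7 ± 0.47% inside. At 500 to 1000 bp beyond, the sets of lowest, middle and highest GC had 15.4 ± 0.98%, 21.7 ± 0.72% and 35.6 ± 0.31%. Coverage at the end was thus higher in each set of higher GC, and the drop from the inside was smallest in the set of highest GC. In that set the end was covered more than the sequence beyond it. The part of base composition in the drop was not tested.

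Mappability and peak strength were measured at the same places. The share of 32-base words that occur once in the mm9 genome was 92.9% within 100 bp of the end, against 92.1% at 500 to 1000 bp inside and 90.1% beyond. Restricted to bins with such a word, mm9 coverage was 24.1 ± 0.68% at the end, against 27.8 ± 0.49% inside. The signal value is the authors' own measure of each peak. For the 50000 peaks of highest signal value in each replicate, mm10 coverage was 5.98 ± 0.40% at the end against 7.2 ± 0.13% inside, a ratio of 0.83. For the remaining, weaker peaks it was 6.91 ± 0.13% at the end against 11 ± 0.27% inside, a ratio of 0.63. At 500 to 1000 bp beyond, coverage was 6.13 ± 0.20% for the strongest peaks and 9.53 ± 0.18% for the weaker ones. For the strongest peaks in replicate 2, the end and the sequence beyond it were alike, at 6.26% and 6.27%. The parts of mappability and of peak strength in the drop were not tested.

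With bases pooled over genes, the last exon carried more of the mark than the intron before it. On mm9, 26.7% of last-exon bases lay in peaks in replicate 1 and 27.8% in replicate 2, over the 9678 3' ends with a spliced transcript that ends there. The adjoining stretch of intron, up to the exon's length, had 23% in replicate 1 and 24% in replicate 2. Long exons weighed more in these shares, and genes with short introns weighed less in the intron value. The difference was not taken within genes. In the 6152 last exons of at least 900 bp, coverage decreased along the exon: the opening part, 1 of 3 equal parts, had 30.3% in replicate 1 and 31.3% in replicate 2. The middle part had 26.2% and 27.6%, and the closing part had 23.8% and 25.1%, in replicates 1 and 2 in that order.

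Whether a 3' end counts as rich or poor in H3K4me1 depended on the positions it was set against. With all record bases over 10 kb from every TSS pooled, the background was 9.89% in replicate 1, 10.8% in replicate 2 and 11.4% in the replicated list. The last base was higher than this by 2.11 ± 0.11 points (exact permutation p = 0.33, two-sided, the smallest possible). The pooled background is weighted towards long genes, which hold most of these bases. With each gene's own record as background and each gene weighted equally, the distal record was covered to 16.0 ± 0.66%. The last base, at 12.5 ± 0.53%, was then lower, the difference being -3.57 ± 0.13 points. The sign of the last base difference therefore changed with the weighting, which was added after the data were seen. For the 2 kb around the end, the difference from the own records at equal weight was 0.09 ± 0.34 points. It was 0.33 in replicate 1 and -0.15 in replicate 2. Against the pooled background, the 2 kb was higher by 5.77 ± 0.33 points. In the 5674 genes with at least 20 kb of distal record, the last base was covered in 10.3 ± 0.52%, the stretch 500 to 1000 bp inside in 16.0 ± 0.18% and the whole distal record in 13.4 ± 0.92%. Bases outside gene records and over 10 kb from every TSS had 4.11 ± 0.02%.

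**Figure D3:**
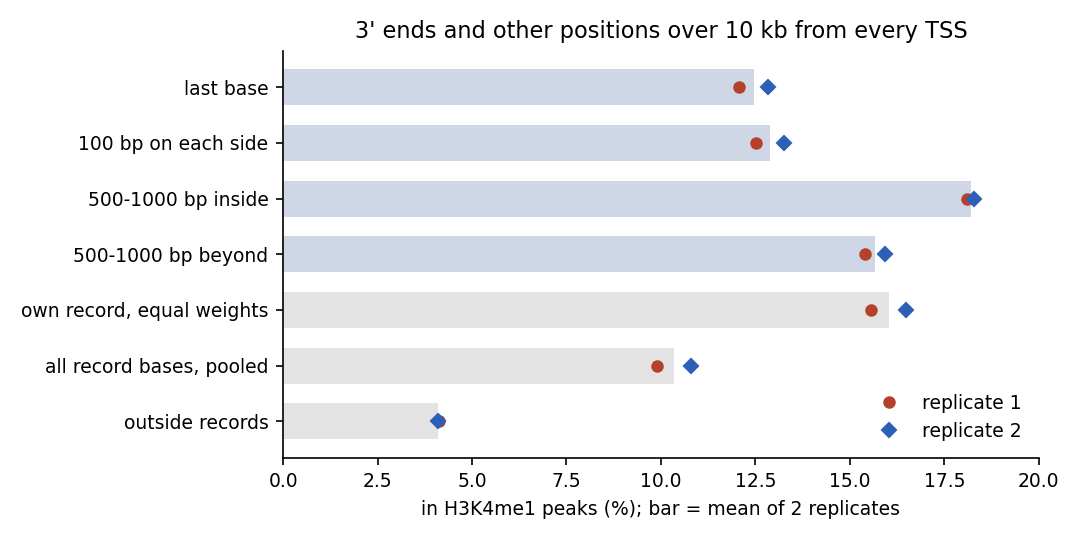
Share in H3K4me1 peaks (x axis, %) of 4 kinds of position at the 9813 3' ends (upper 4 bars) and of 3 backgrounds over 10 kb from every TSS (lower 3 bars). Bars are means of 2 replicates, circles replicate 1 and diamonds replicate 2; the last base (12.5%) lies above all record bases pooled (10.3%) and below the genes' own records at equal weight (16.0%).

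The 5 kb inside the gene was covered to 16.8 ± 0.34%, against 14.6 ± 0.23% for the 5 kb beyond it. The difference was 2.18 ± 0.11 points, and each replicate alone gave 2.10 and 2.26 points (exact permutation p = 0.33, the smallest possible). Within 1 kb of the end, 939 ends in replicate 1 had peaks on the inside alone and 768 on the outside alone. In replicate 2 these were 968 and 783.

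A 3' end was much more often covered where the gene's own promoter carried H3K4me1. Of the 8013 genes with a replicated peak within 2 kb of their TSS, 14.6 ± 0.64% had a peak on the last base, against 3.11 ± 0.08% of the 1800 genes without one. The difference was 11.4 ± 0.56 points (exact permutation p = 0.33, the smallest possible). In the replicated list this was 1346 genes with and 68 genes without a promoter peak. Both measures come from the same lists, so whatever lowers peak calling over a whole locus lowers both, and the part of this was not tested.

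Genes of every length showed the difference. Among genes under 20 kb, 20.8 ± 1.0% of those with and 3.19 ± 0.12% of those without a promoter peak were covered at the end. At 100 to 300 kb these values were 9.53 ± 0.43% with and 4.17% without, where both replicates had 8 of 192 genes. Over 300 kb they were 5.16 ± 0.66% of 426 genes with and 0.69 ± 0.98% of 72 genes without. The 0.69% stood for 0 genes in replicate 1 and 1 in replicate 2, so this class rests on few genes. Among ends over 100 kb from any TSS, 5.11 ± 0.10% of 734 genes with and 3.13% of 128 genes without a promoter peak were covered. The 3.13% were 4 genes in each replicate.

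**Figure D4:**
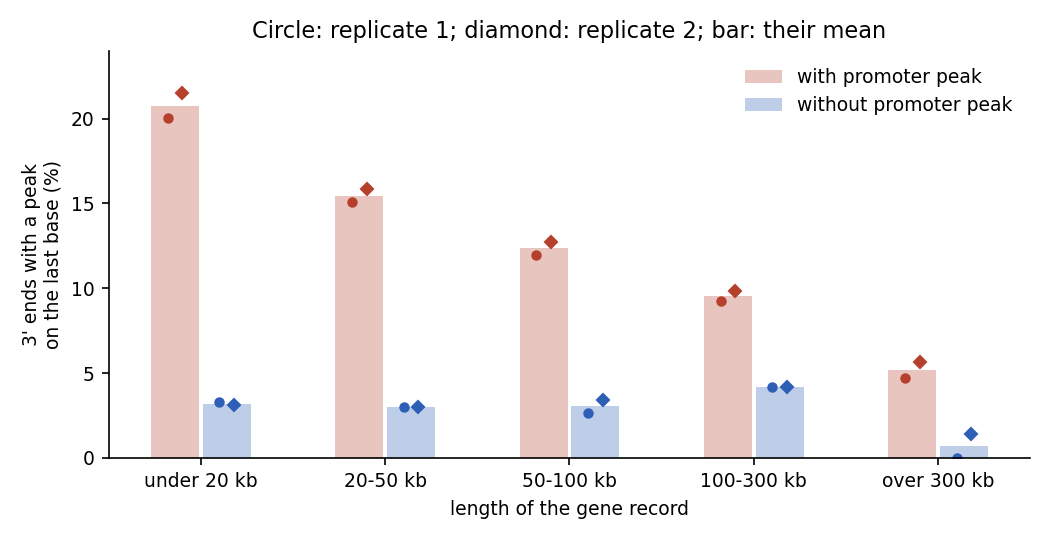
Share of 3' ends with a peak on the last base (y axis, %) by length of the gene record (x axis), for genes with and without a replicated peak within 2 kb of their own TSS. Bars are means of 2 replicates; under 20 kb the values were 20.8% with and 3.19% without a promoter peak.

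Coverage of the last base decreased with gene length, and also with distance from the nearest TSS. It was 16.6 ± 0.75% in 2451 genes under 20 kb, 13.0 ± 0.43% in 3484 genes of 20 to 50 kb, 11 ± 0.53% in 1866 genes of 50 to 100 kb, 8.85 ± 0.37% in 1514 genes of 100 to 300 kb and 4.52 ± 0.71% in 498 genes over 300 kb. By distance it was 16.6 ± 0.69% at 10 to 20 kb, 11.3 ± 0.28% at 20 to 50 kb, 8.74 ± 1.1% at 50 to 100 kb and 4.81 ± 0.08% over 100 kb. Length and distance largely describe the same genes and were not separated. At the limit of the rule, the 551 ends just inside it, at 10 to 11 kb from a TSS, were covered in 19.1% in replicate 1 and 18.5% in replicate 2. The 619 ends just outside it, at 9 to 10 kb, were covered in 20.0% in each replicate.

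Ends with a near neighbour were covered more often. Where the next gene beyond the end pointed back at it (convergent), 13.7 ± 0.45% of 5173 ends were covered, against 11.2 ± 0.66% of 4579 ends followed by a gene in the same direction (tandem). Of the ends outside other records, convergent ones with the neighbour within 5 kb had 18.3 ± 0.77%, but the rule leaves no tandem gene nearer than 10 kb, since the gap runs to its TSS. At gaps of 5 to 20 kb, convergent ends had 14.9 ± 0.15% and tandem ends, all from 10 kb up, had 16.4 ± 0.69%. Over 20 kb, convergent ends had 8.95 ± 0.37% and tandem ends had 9.39 ± 0.62%. Ends inside another protein-coding record had 12.4 ± 1.3% (828 ends), close to the 12.5 ± 0.46% of the 8985 others. Between chromosomes, the share ran from 6.79% of 560 ends on chromosome 3, equal in both replicates, to 19.7 ± 0.39% of 365 ends on chromosome 15 and 19.6 ± 0.46% of 612 on chromosome 11.

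GC content also separated covered from uncovered ends. On mm9, the kilobase around the last base had a median GC content of 47.8% (quartiles 43.6% and 51.8%) at ends with a peak and of 41.3% (37.7% and 45.4%) at ends without one. The ratio of observed to expected CpG dinucleotides had a median of 0.24 at ends with a peak and 0.20 at ends without one. Both are well below the ratio usual in CpG islands. Unique 32-base words made up 95.3% within 500 bp of ends with a peak and 90.8% at ends without one. Whether mappability or composition accounts for part of the difference was not tested.

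The rule looks at starts of protein-coding records, so other promoters can lie near these 3' ends. RefSeq promoters, known for all chromosomes but 18, placed a further start of a protein-coding gene within 10 kb of 288 ends and a long non-coding RNA (lncRNA) promoter within 10 kb of 723. The 8538 ends with neither were covered in 11.8 ± 0.51%. A lncRNA promoter lay within 2 kb of 106 ends, of which 24 in replicate 1 and 20 in replicate 2 were covered, 20.8 ± 2.7%, against 12.4 ± 0.54% of the 9397 others. The replicated list covered 29 of the 106.

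Some of these 29 peaks ran beyond the gene over the whole 300 bases of the lncRNA promoter, and 3 of them, picked after their values were seen for their range of CpG counts, are printed because they show what else such a peak can cover. They are RefSeq sequences on GRCm38.p6, from 250 bases before to 50 after the lncRNA start, 5' to 3' on the lncRNA's strand, with CpG dinucleotides in capitals.
Gm13201, chr4:148075292-148075591, minus strand: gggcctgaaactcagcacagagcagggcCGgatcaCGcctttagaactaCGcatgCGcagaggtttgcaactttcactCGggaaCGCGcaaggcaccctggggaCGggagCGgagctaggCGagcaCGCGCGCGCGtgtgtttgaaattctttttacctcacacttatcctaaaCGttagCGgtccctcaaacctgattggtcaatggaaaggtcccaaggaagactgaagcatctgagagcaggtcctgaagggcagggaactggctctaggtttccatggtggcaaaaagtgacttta
Gm17029, chr4:148959914-148960213, plus strand: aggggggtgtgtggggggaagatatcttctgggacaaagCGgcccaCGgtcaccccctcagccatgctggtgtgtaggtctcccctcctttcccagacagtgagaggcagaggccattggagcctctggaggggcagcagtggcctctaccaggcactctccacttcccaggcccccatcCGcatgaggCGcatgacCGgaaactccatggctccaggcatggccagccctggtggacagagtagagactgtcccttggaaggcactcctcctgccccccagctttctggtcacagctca
1700120K04Rik, chr7:127604396-127604695, minus strand: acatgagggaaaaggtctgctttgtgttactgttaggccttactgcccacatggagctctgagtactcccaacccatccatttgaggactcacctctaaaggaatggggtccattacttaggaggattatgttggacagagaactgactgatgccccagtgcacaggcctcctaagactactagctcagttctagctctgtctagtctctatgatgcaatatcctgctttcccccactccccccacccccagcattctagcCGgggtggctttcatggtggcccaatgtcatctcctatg
This start of Gm13201, which has another one nearer, lay 1720 bp beyond the end of Agtrap, which encodes an angiotensin receptor-associated protein, and held 17 CpG dinucleotides in its 300 bases. The Gm17029 start lay 371 bp beyond Pex14, a peroxisomal import gene, and held 5. The 1700120K04Rik start lay 840 bp beyond Rnf40, a ubiquitin ligase gene of the machinery for H2B ubiquitination, and held 1. Over the 11588 lncRNA promoters of the table the median was 4. The 2 kb around the end was covered to 87.5% and 93.1% at Agtrap, 72.5% and 87.7% at Pex14 and 100% and 97.1% at Rnf40, in replicates 1 and 2.

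The 1414 ends under a replicated peak lay in 1334 distinct peaks. These peaks had a median width of 1849 bp and a median signal value of 6.37. The 85751 replicated peaks centred in gene records over 10 kb from every TSS had a median of 683 bp and 4.06. A single base is more likely to fall in a wide peak than in a narrow one, so this is a description and not a property of 3' ends. The summits of these peaks lay inside the gene for 696 ends, 49.2%, and beyond it for 718, 50.8%. They were within 100 bp of the end for 142, or 10.0%. The peak reached a median of 825 bp into the gene and 691 bp past it.

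Peaks separated by at most 1 kb were joined into domains. A domain of at least 10 kb lay over 451 of the 1414 ends, and in 51 the domain also held the gene's own TSS. At 140 of the 9813 ends, peaks covered at least 80% of the surrounding 10 kb in both replicates, and at 89 the 2 kb around the end was covered in full in both.

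Of the 12 covered ends of highest signal value, 6 were facing pairs of genes that share a peak. Fntb, the beta subunit of protein farnesyltransferase, had the highest, 16.6. Its 3' end, at position 76921412 of chromosome 12 (mm10, plus strand), lay 40.9 kb from the nearest TSS. The peak, from 76915911 to 76921424, ended 12 bp past the gene, with its summit 3278 bp inside. The 5 kb inside was covered to 98.4% and 98.8% in replicates 1 and 2, against 26.4% and 38.3% of the 5 kb beyond. Replicate 1 covered the last base and replicate 2 did not.

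Spata21 and Szrd1 on chromosome 4 shared 1 peak of 6.44 kb with a signal value of 16.5. They face each other, with ends at 141112760 and 141112978, 218 bp apart. The summit lay 553 bp beyond the end of Spata21 and 335 bp inside Szrd1. The 5 kb inside Szrd1 was covered in full in both replicates, while the 5 kb inside Spata21 was covered to 34% and 24%, so the mark at this end of Spata21 lay mostly in its neighbour. Itgb7, a leukocyte integrin subunit, and Zfp740, a zinc finger gene, shared a peak of signal value 15.3 on chromosome 15, with ends at 102215994 and 102215610, 384 bp apart. Yars, the tyrosyl-tRNA synthetase gene, and C77080 shared a 12.6 kb peak of signal value 14.6 on chromosome 4, with ends at 129219240 and 129219578, 338 bp apart, and another RefSeq promoter lay 8671 bp from the end of Yars. Over these 6 ends and both replicates, the lowest coverage of the 2 kb was 91.2%, at Spata21 in replicate 2.

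Pml, which encodes the organising protein of PML nuclear bodies, was covered on both sides alike. Its end, at 58217179 on chromosome 9 (minus strand), sat in a peak from 58211943 to 58220705 with a signal value of 14.5. The 5 kb inside was covered to 98.8% and 98.3%, and the 5 kb beyond to 96.7% and 100%. Ltbp4, a binding protein of latent TGF-beta, had a signal value of 15.9 and 97.2 ± 4.0% of the 2 kb around its end covered. Tab1, an adaptor of the kinase TAK1, had 15.2 and 92.2 ± 11%. Ptpa, an activator of the phosphatase PP2A, had 14.8 and 94.1 ± 8.4%, and another RefSeq promoter lay 5954 bp from its end. Slc16a3, a lactate transporter gene, had 14.4 and 96.5 ± 5.0%, but it is only 10.5 kb long, ends inside the Csnk1d record, and had its summit 6551 bp inside, nearer the TSS than the end. Another RefSeq promoter lay 9933 bp from its end.

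Some of the widest domains over 3' ends lay at facing genes. A domain of 73.2 kb covered the facing ends of Zfp710 and of Idh2, a mitochondrial isocitrate dehydrogenase gene, at 80092751 and 80094845 on chromosome 7. Zfp710 was covered over 86.9% and 88.8% of its record in replicates 1 and 2, and Idh2 over 63.1% and 69.9%. The last base of Idh2 was free in replicate 1 and covered in replicate 2. Domains at the overlapping ends of Niban2 and Lrsam1 (57.8 kb), at Sall1 (55.3 kb), Ahdc1 (55.1 kb) and Lmnb1 (54.7 kb) were narrower. The domain at Niban2 stopped at 32925283 on chromosome 2, just past the last base of Niban2 at 32925253. That base was free in both replicates. In Ahdc1 the 2 kb around the end and the 5 kb inside were covered in full in both replicates. At Lmnb1, a nuclear lamina gene, the 5 kb beyond the end, at 100% and 99.0%, was covered more than the 5 kb inside, at 78.5% and 79.3%.

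Genes of the pluripotency network had peaks at 5 of their 13 distal 3' ends in the replicated list, or 38.5%. The share was 14.4% of all 9813 ends and 16.8% of those with a promoter peak, which all 13 have. The list, like the others below, was drawn up with earlier results of these data known, and its count is a description. The 5 genes were Esrrb, Klf5, Dppa4, Tbx3 and Sall1. Klf5, Dppa4, Tbx3 and Sall1 ended 14.7, 10.6, 14.2 and 16.9 kb from the nearest TSS, which was their own. Among all ends at 10 to 20 kb from a TSS whose gene had a promoter peak, 22.8% had a replicated peak. Esrrb, an orphan nuclear receptor of the naive pluripotency network, ends at 86521628 on chromosome 12, 157 kb from the nearest TSS, the farthest of the 5. Its 2 kb around the end was covered to 91.5% and 100%, and the 5 kb inside in full in both replicates, against 47.9% and 48.8% of the 5 kb beyond. Its domain of 54.0 kb lay mostly within the gene.

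Sall1, a zinc finger repressor of the same family as Sall4, ends at 89027242 on chromosome 8 and had 87.4% and 85.8% of its 2 kb covered. At Klf5, a Krüppel-like factor, with its end at 99313412 on chromosome 14, the peak on the last base was weak, with a signal value of 4.53, but it was part of a 44.4 kb domain. The 2 kb there was covered to 81.3% and 79.0%. Tbx3, a T-box repressor, ends at 119684724 on chromosome 5 and had 92.4% and 91.9% of its 2 kb covered, yet its last base was free in replicate 1. A lncRNA promoter lay 6494 bp away. The mark at Tbx3 lay more beyond the gene, at 97.9% and 92.9% of 5 kb, than inside it, at 79.8% and 61.1%. Dppa4, a chromatin protein of early embryos, ends at 48294292 on chromosome 16 and was also covered more beyond the gene, at 71.9% and 72.5%, than inside it, at 38.0% and 44.0%.

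A list of signalling genes, mainly of the LIF, WNT, BMP, NODAL, FGF and Notch pathways, also held Ptch1, Gli2, Gli3, Yap1 and Tead1. Of its 32 distal 3' ends, 7 had a replicated peak, 21.9% against 14.4% of all ends. Among ends whose gene had a promoter peak, as all 32 do, the share was 16.8%. With 32 ends, 21.9% is near the background, and the genes below are given as a description. Etv4 and Etv5, ETS factors induced by FGF signalling, differed. Etv4, ending at 101769747 on chromosome 11, had its 2 kb covered in full in both replicates under a peak of signal value 14.3. At Etv5, ending at 22381313 on chromosome 16, a 434 bp peak of the replicated list reached 4 bp past the last base into the gene, neither replicate covered that base, and 34.8% and 59.6% of the 2 kb was covered. The 5 kb beyond Etv5 was covered to 88.4% and 92.9%.

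Spry4 and Smad7, feedback inhibitors of FGF and of TGF-beta and BMP signalling, had 92.8% and 97.2%, and 90.8% and 100%, of their 2 kb covered in replicates 1 and 2. Ctnnb1, which encodes beta-catenin, ends at 120960507 on chromosome 9 and had 100% and 94.1%, with more beyond the gene, at 89.8% and 98.8% of 5 kb, than inside it, at 58.2% and 70.4%. Notch1, a receptor gene ending at 26457902 on chromosome 2, had 90.8% and 91.2%. In contrast to Ctnnb1, its mark lay inside the gene, at 100% and 94.5% of 5 kb, against 41.7% and 40.8% beyond. Il6st, which encodes the gp130 receptor subunit that LIF signals through, had 16.0% and 83.5%, the largest difference between replicates of any of the 9813 ends.

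**Figure D5:**
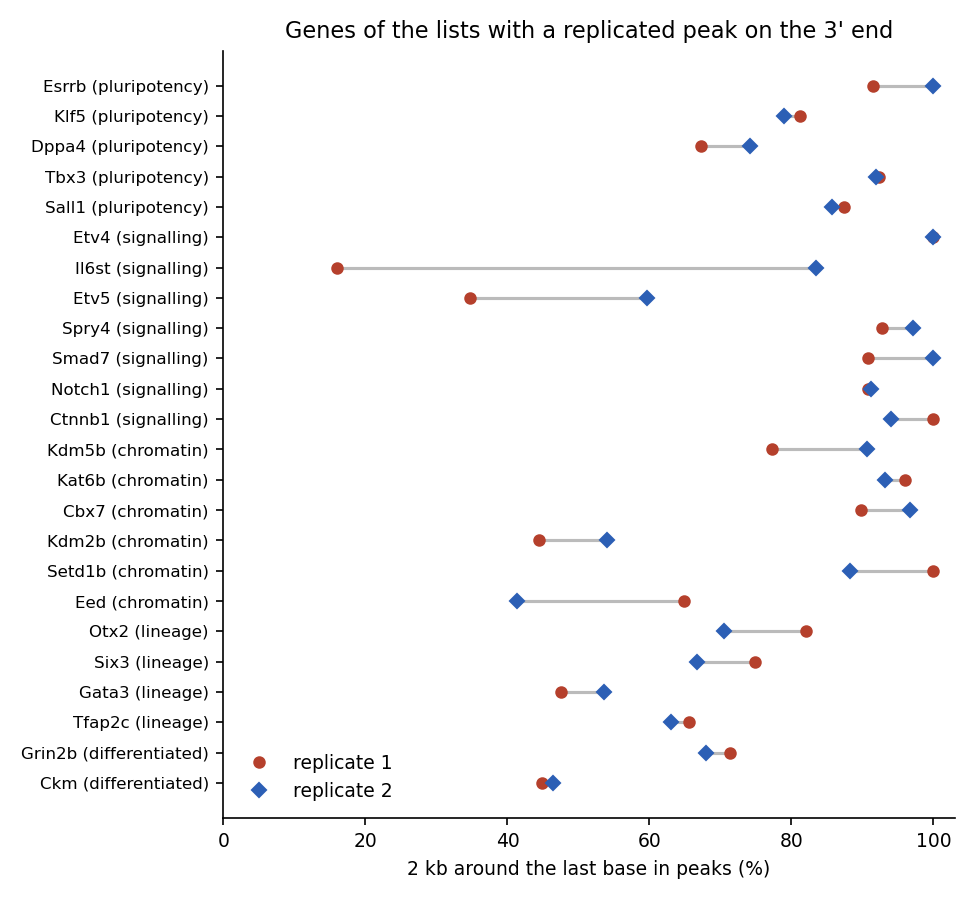
Share of the 2 kb around the last base in H3K4me1 peaks (x axis, %) in replicate 1 (circle) and replicate 2 (diamond), for the 24 genes of the 5 lists with a replicated peak on the 3' end (y axis, list in brackets). Most pairs lie close together; Il6st, at 16.0% and 83.5%, is the widest.

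Of the 28 distal 3' ends of chromatin regulators, 6 had a replicated peak, or 21.4%, against 14.4% of all 9813 ends and 16.8% of those with a promoter peak, which 26 of the 28 have. With 28 ends, that is near the background. Kat6b, a histone acetyltransferase gene of 173 kb, had 96.0% and 93.2% of the 2 kb around its end covered. Setd1b, an H3K4 methyltransferase gene, had 100% and 88.3%, though replicate 2 left its last base free. Kdm5b, a demethylase of H3K4, had 77.3% and 90.7%. Cbx7, the Polycomb chromodomain gene of embryonic stem cells, ends inside the Apobec3 record and had 89.9% and 96.8% covered, while the last base itself was free in both replicates. Kdm2b, which brings a Polycomb complex to CpG islands, had 44.5% and 54.0%. Eed, a subunit of Polycomb repressive complex PRC2, had 64.9% and 41.3%, with its last base free in replicate 2.

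Of 19 transcription factor genes of later lineages, 4 had a replicated peak, or 21.1%, against 14.4% of all ends and 16.8% of those with a promoter peak, which 18 of the 19 have. With 19 ends, that is near the background. These were Otx2, Six3, Gata3 and Tfap2c. Otx2 and Six3 act in the anterior neural plate, Gata3 in T cells and trophoblast, and Tfap2c in trophoblast and germ cells. The 2 kb around their ends was covered to 82.1% and 70.5% at Otx2, 74.8% and 66.7% at Six3, 47.6% and 53.6% at Gata3, where the last base was free in replicate 1, and 65.6% and 63.0% at Tfap2c. Another RefSeq promoter lay 5953 bp from the end of Otx2 and 5357 bp from that of Six3. The median of this list was 0%, as it was over all 9813 ends, so the middle end of the list had no covered base within 1 kb.

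Of 28 differentiated tissue and adhesion genes, mainly of neurons, muscle and liver, 2 had a replicated peak, Grin2b and Ckm, or 7.14%, against 14.4% of all ends. The list they came from also held the fibroblast markers Col1a2, Col3a1 and Dcn. Grin2b, an NMDA receptor subunit gene of 460 kb, was covered over 4.74% and 4.92% of its whole record, but 71.4% and 67.9% of the 2 kb around its end lay in peaks. The nearest TSS was 351 kb away. Ckm, the muscle creatine kinase gene, had 44.9% and 46.4%, and a lncRNA promoter lay 166 bp from its end. The median coverage of the 2 kb was 12.6% for the pluripotency list, 9.64% for chromatin regulators, 6.08% for signalling genes and 0% for differentiated genes. None of the 16 olfactory receptor and 107 vomeronasal receptor genes with a distal 3' end had a peak on it, and 6.25% and 0.93% of them had a promoter peak. Most of them thus belong with the 1800 genes without a promoter peak, of which 3.78% had a replicated peak on the end.

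The 68 covered ends without a promoter peak hold 3' ends that carried H3K4me1 while the start of the same record did not. Among those of at least 20 kb, the strongest were Igf2bp1, Glt8d2, Capn3, Serinc2, Txnrd1 and Chrna9. Igf2bp1, an RNA-binding protein gene of embryonic tissues ending at 95957163 on chromosome 11, was the only one of the 6 with peaks over most of its record, 81.6% and 86.2%. Its domain of 47.9 kb stopped just outside the 2 kb around the TSS. In Capn3, a muscle calpain gene ending at 120504919 on chromosome 2, the 2 kb around the end was covered in full in both replicates, against 29.2% and 28.8% of the record. The next gene, which faces it, ended 1901 bp beyond. Serinc2, ending at 130253495 on chromosome 4, had 93.1% and 92.1% of the 2 kb covered. Its mark lay beyond the gene, at 61.6% and 62.7% of 5 kb, against 20.9% and 25.4% inside, and a lncRNA promoter lay 9311 bp away.

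Txnrd1, the cytosolic thioredoxin reductase gene, had 81.2% and 83.1% of the 2 kb covered, and Chrna9, a nicotinic receptor subunit gene, had 91.1% and 77.9%. The peak at Glt8d2, ending at 82650431 on chromosome 10, stopped 2 bp beyond the gene. There the 5 kb inside was covered to 77.2% and 81.7%, against 10.8% and 0% beyond. Its end lies in the record of Tdg, a DNA glycosylase gene, and no replicate covered the last base.

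The replicates differed most at Il6st, Dnm1, Pgap1 and Fbxw8. The 2 kb around the end of Dnm1, a neuronal dynamin gene, was covered to 57.9% in replicate 1 and 0% in replicate 2. At Fbxw8, a subunit of a ubiquitin ligase, it was 52.2% and 0%. At Pgap1, an enzyme gene of GPI anchor maturation, it was 7.80% and 61.3%. None of these 3 ends had a replicated peak on the last base, and Il6st had one. The list of replicate 2 was made with a file that the list of replicate 1 was not, and its part in these differences was not tested.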

How the data were processed

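H3K4me1 ChIP-seq was analysed in 2 biological replicates of E14TG2a.4 cells. Per the read-me lists and file layout, the authors deposited narrowPeak lists on mm10 per replicate, for the pooled replicates and as replicated peaks, which give −log10 p, −log10 q and signal per peak, and broadPeak lists on mm9 with signal, p-value and q-value. The aligner, the caller and the rule for replicated peaks were not given in the sources used here. One further file, of unstated role, went into the list of replicate 2 but not that of replicate 1, again per the read-me lists. Lists were used as deposited; depth is unknown.

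Gene records came from RefSeq on GRCm38.p6. Strands came from RefSeq promoters by gene ID for 17491 of 21883 protein-coding records, and from GENCODE vM1 by symbol for 3647 and synonym for 393. Where both gave a strand, 99.7% were equal. The 352 without strand gave no 3' end, and both their ends counted as TSSs. A gene had a promoter peak where a replicated peak lay within 2 kb of its TSS. Coverage was counted per base and in 100 bp bins, and the functions were tested on simulated data. No coordinate was converted between builds. GC content, 32-base words and hexamers came from the mm9 genome with GENCODE vM1. Python 3.11 was used with pandas and numba.

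The members, gene lists, tests and settings were chosen with earlier results of these data known. Named genes were the 12 covered ends of highest signal value, the 8 in the widest domains, list genes with a replicated peak on the end, the 6 strongest of at least 20 kb without a promoter peak, and the 4 with the largest replicate difference. One gene that this rule names is not reported here. With 1 group, SDs describe the spread of 2 libraries. Alternatives varied the distance, TSSs, peak threshold, list, build, counting of close ends, strands and replicates.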

Additional observations from a re-analysis of the deposited data

How the results depend on the processing

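Over the alternatives run, all directions held except one: with each gene's own distal record as background, an alternative chosen after the data were seen, the last base minus gene body difference became -3.57 points from 2.11. The count of covered ends, 1414, became 2238 at a distance over 5 kb, 676 over 20 kb and 183 over 50 kb, as the number of ends changed, 760 with the 50000 strongest peaks, 2496 with the mm9 lists and records, and 2786 for a peak within 500 bp. The share of covered ends, 12.5%, became 14.4% over 5 kb, 9.78% over 20 kb, 7.18% over 50 kb, 11.6% with TSSs of all genes, 5.92% with the strongest peaks, 23.1% on mm9, 29.4% within 500 bp and 11.8% with no other RefSeq promoter within 10 kb, the last chosen after the data were seen. Fewer peaks or wider windows change a share by construction. The fall at the end ranged from 1.22 points with the strongest peaks to 5.71 over 5 kb, and the difference by promoter peak from 6.42 over 50 kb to 19.6 on mm9. The inside minus beyond difference was 0.96 points with the strongest peaks, and the last base minus pooled gene body difference was 0.85 over 20 kb, 0.50 over 50 kb and 7.39 on mm9. Leaving out replicate 1 gave a share of 12.8% and a fall of 5.04 points, and leaving out replicate 2 gave 12.1% and 5.58 points. With 1 group, no groups could be paired, but each difference was also taken within its replicate (a replicate block, chosen after the data were seen). The fall was then 5.58 and 5.04 points in replicates 1 and 2, a mean of 5.31, with an exact paired p of 0.5, the smallest possible. Without read counts, the depth behind a peak or its absence cannot be judged.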
